A study of Mus musculus with 12 samples.

Results

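The 10 genes described here encode carriers that move amino acids across the plasma membrane, or a subunit of such carriers: Slc3a2, Slc7a5, Slc7a8, Slc43a1, Slc7a1, Slc7a2, Slc1a4, Slc1a5, Slc38a2 and Slc38a5. They were taken by symbol from 49585 genes listed in each library of a sequencing study of mouse pancreas RNA, and all 10 had enough counts to be tested among 14329 genes. The study compared whole pancreas of C57Bl6 control mice, called wild type here, with that of congenic Atf3-/- mice. All mice were 2 to 4 months old, and each received 4 injections within 4 h, either of saline or of 50 ug/kg cerulein, an analogue of the gut hormone cholecystokinin that drives acinar cells to secrete and at such doses produces an acute pancreatitis. Each group holds 3 animals with 1 library per animal: W1, K5 and R3 (wild type, saline), O1, O3 and N3 (wild type, cerulein), S1, K4 and Q1 (Atf3-/-, saline), and C2, C3 and L4 (Atf3-/-, cerulein). Sex, litter and the deleted part of Atf3 are not given in the labels.

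Library totals lay between 18292997 and 32158629 counts. Atf3 itself was not lower where the label says knockout: it stood at 1.13 to 5.28 CPM (counts per 1e+06 counts of the scaled library) in wild type and 7.44 to 23.1 CPM in Atf3-/- with saline. With cerulein it stood at 394 to 775 CPM in wild type, against 1375 (C2), 20.7 (C3) and 1636 CPM (L4). The Atf3-/- groups are therefore called labelled knockout below. C3, labelled cerulein, lay among the saline libraries on the first principal component, at -55.9 within -58.8 to -46.4, whereas the other 5 cerulein libraries lay between 61.9 and 86.1. The edgeR results for cerulein in the labelled knockout are given with and without C3, and DESeq2 and limma-voom were run with C3 kept. All 8 acinar markers had counts in every library, and their sum was 238857 to 360627 CPM in the 6 saline libraries, 173304 to 220018 CPM in the 5 cerulein libraries and 273008 CPM in C3. The 6 duct markers, all detected in every library, summed to 29.97 to 35.4 CPM in saline, 96.2 to 239 CPM in the 5 cerulein libraries and 32.4 CPM in C3. Their part in the results below was not tested. In whole tissue, fewer cells of one type and less RNA per cell cannot be told apart.

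Acinar cells make and export large amounts of digestive enzymes and draw the amino acids for them from the blood. Carriers of the Slc7 light chain type reach the cell surface bound to the heavy chain Slc3a2, also known as CD98. The Slc7a5 and Slc7a8 pairs exchange large neutral amino acids such as leucine, whereas Slc7a1 and Slc7a2 work without the heavy chain and import arginine and lysine. Slc1a4 and Slc1a5 exchange small neutral amino acids and glutamine with sodium, and Slc38a2 and Slc38a5 carry glutamine and other neutral amino acids into the cell with sodium. Transcription factors of the amino acid response, led by Atf4, are known to act on several of these genes.

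In wild type, cerulein was accompanied by higher levels of 5 of the 10 carriers, a lower level of 1, and no change past the test for the other 4. The heavy chain Slc3a2 rose 4.19-fold, the cationic carrier Slc7a1 3.80-fold, Slc1a5 3.76-fold, Slc38a2 3.11-fold and the light chain Slc7a5 2.66-fold. Slc7a8 fell 9.93-fold. Slc1a4, Slc7a2, Slc38a5 and Slc43a1 did not pass. The 10 log2 fold changes had a median of 1.23, against 0.0496 over all genes tested. The 10 were chosen with earlier results of these data known, so these medians are a description and not a test. Of all genes tested, 30.7% were called in this comparison, 17.9% being higher and 12.8% lower in cerulein. A call is an adjusted p under 0.05 in edgeR's quasi-likelihood F test, with Benjamini-Hochberg adjustment over the 14329 genes and 1 model for the 4 groups. The wild-type groups did not overlap for 9 of the 10 genes, against 52.3% of all genes tested. The exception was Slc7a2. Without C3 the spread shared by the groups was smaller, Slc1a4 also passed, and 7 of the 10 were called (6 higher and 1 lower), against 37.9% of all genes (21.3% higher and 16.6% lower).

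**Figure D1:**
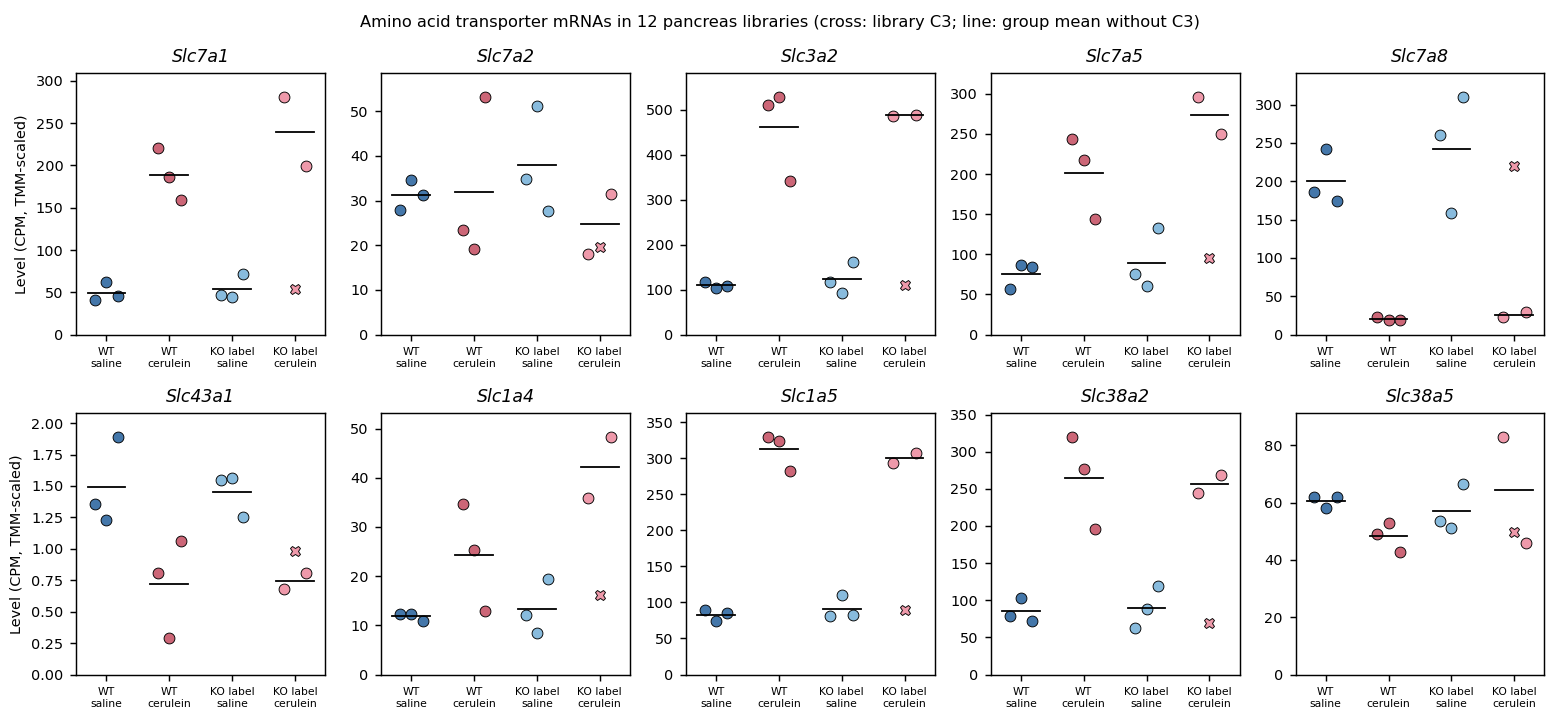
Level of each of the 10 carriers in CPM in the 12 libraries by group, with 1 point per library, C3 as a cross, a line at each group mean without C3 and an axis from 0 in each panel. Slc7a8 fell from 174 to 242 CPM in wild type with saline to 18.9 to 22.3 CPM with cerulein, and C3 stands at 219.7 CPM.

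Promoters were compared because 5 of the carriers rose together while 1 fell. RefSeq promoter entries on GRCm38.p6 matched 7 of the 10 genes with 8 starts, Slc7a1 having 2. Slc7a2, Slc7a5 and Slc1a5 are the others. Of the 250 bases before the annotated start, the stretch that lies in no annotated exon is printed for the first Slc7a1 start (chr5:148399905-148400154, minus strand), Slc38a2 (chr15:96699731-96699978, minus strand) and Slc1a4 (chr11:20332714-20332963, minus strand), and for Slc7a8, which fell (chr14:54781947-54782136, minus strand). The first 2 rose in wild type, and Slc1a4 passed without C3. They run 5′ to 3′ along the gene, and capitals mark a match to the motif of the AP-1 family.
Slc7a1: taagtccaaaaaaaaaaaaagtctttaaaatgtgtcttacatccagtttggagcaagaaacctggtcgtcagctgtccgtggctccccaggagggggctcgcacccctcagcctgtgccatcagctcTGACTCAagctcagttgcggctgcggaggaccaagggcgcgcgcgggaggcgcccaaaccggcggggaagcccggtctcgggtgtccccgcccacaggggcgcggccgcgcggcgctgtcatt
Slc38a2: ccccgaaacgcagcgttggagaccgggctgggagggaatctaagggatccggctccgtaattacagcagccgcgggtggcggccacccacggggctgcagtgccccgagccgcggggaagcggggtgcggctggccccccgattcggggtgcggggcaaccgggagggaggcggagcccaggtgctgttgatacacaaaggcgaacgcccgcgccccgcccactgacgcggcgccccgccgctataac
Slc1a4: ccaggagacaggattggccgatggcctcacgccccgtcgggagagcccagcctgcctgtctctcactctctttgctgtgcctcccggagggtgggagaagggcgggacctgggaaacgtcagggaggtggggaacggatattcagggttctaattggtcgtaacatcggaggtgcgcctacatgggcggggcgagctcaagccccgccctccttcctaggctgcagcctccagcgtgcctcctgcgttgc
Slc7a8: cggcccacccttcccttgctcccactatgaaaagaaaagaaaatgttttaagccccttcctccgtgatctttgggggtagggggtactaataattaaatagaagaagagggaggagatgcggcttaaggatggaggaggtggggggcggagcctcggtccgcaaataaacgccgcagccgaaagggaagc

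The 250 bases were searched on both strands for 4 motifs, none contained in another: the amino acid response motif bound by Atf4 (TGATGNAA), the AP-1 motif (TGANTCA), the cyclic AMP response motif (TGACGTCA) and the E-box (CACGTG). The AP-1 letters were found 123 bases before the first of the 2 Slc7a1 starts, and in 6.75% of 32851 promoters of the same length. The window of the other Slc7a1 start held none of the 4 motifs. It begins inside an annotated exon of the gene, as does the window of Slc3a2. CACGTG was found 30 bases before the start of Slc38a5 and 64 bases before that of Slc43a1, and in 6.02% of promoters. Both matches lie past the point where an annotated exon of the gene begins. That point comes after 2 bases of the Slc38a5 window and 126 bases of the Slc43a1 window. TGATGNAA, held by 3.45% of promoters, and TGACGTCA, held by 1.55%, are not among the letters of these windows for the 7 genes matched. A match is a description of the letters and not a bound site. Bases outside these windows were not searched, and Slc7a5 and Slc1a5, which rose, had no entry. Absence of a motif here therefore says nothing of sites elsewhere in these genes.

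Among the carriers of large neutral amino acids, the heavy chain Slc3a2 (ENSMUSG00000010095, GRCm38 chromosome 19, 8706882 to 8723369, minus strand) rose in wild type. Its level was 117, 104 and 109 CPM with saline and 511, 528 and 342 CPM with cerulein. The lowest cerulein library, N3, still lay well above the highest saline library. This gave a log2 fold change of 2.07 ± 0.47 (adjusted p = 0.0115), which stayed past the threshold in 20 of 20 alternative settings. This SE, like those below unless another fit is named, comes from the model of the 4 groups, with n = 3 in each. Where another fit is named, the SE is of that fit. The Slc3a2 SE was 0.23 without C3.

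Slc7a5, the light chain also called LAT1 (ENSMUSG00000040010, chromosome 8, 121881150 to 121907694, minus strand), rose less. Its wild-type level was 56.9, 86.1 and 84.1 CPM with saline and 244, 217 and 144 CPM with cerulein, so the groups did not overlap. The log2 fold change of 1.41 ± 0.43 passed (adjusted p = 0.0295), but not without any 1 of W1 (adjusted p = 0.101), K5 (0.0701), R3 (0.0735), O1 (0.0907) or O3 (0.0798). In those 5 fits the change lay between 1.25 and 1.52, and calls over all genes fell from 4399 to between 1841 and 2581. Without C3 the rise of Slc7a5 passed. Slc7a5 shares its locus with the gene model Gm20388 on the opposite strand, which has no exon base in common with it and no count in any library.

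Slc7a8, the light chain also called LAT2 (ENSMUSG00000022180, chromosome 14, 54722209 to 54781946, minus strand), went the other way. It stood at 186, 242 and 174 CPM with saline and at 22.3, 18.9 and 19.4 CPM with cerulein in wild type. The 3 cerulein libraries were close to each other and far below the 3 saline libraries. This was a log2 fold change of -3.31 ± 0.75 (adjusted p = 0.0114), which stayed past the threshold in 20 of 20 alternative settings. The SE uses the spread of all 4 groups and was 0.26 without C3.

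Slc43a1 (ENSMUSG00000027075, chromosome 2, 84838850 to 84863594, plus strand), a carrier of large neutral amino acids that needs no heavy chain, was the least abundant of the 10. It rested on 6 to 48 counts per library. Its level was 1.36, 1.23 and 1.89 CPM with saline and 0.81, 0.29 and 1.06 CPM with cerulein in wild type, all 3 cerulein libraries being lower. A log2 fold change of -1.03 ± 0.42 did not pass (adjusted p = 0.0803). It passed without N3 (-1.41 ± 0.45, adjusted p = 0.0440).

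Set against each other per length of exon, the 2 light chains exchanged places. Length here is that of all annotated exons of a gene together, and the transcripts in use were not determined. With saline, Slc7a5 made up 28.3% to 39.4% of the sum of Slc7a5 and Slc7a8 (CPM per kb of exon) over 6 libraries. With cerulein it made up 90.9% to 94.5% in the 5 libraries that exclude C3, and 36.8% in C3. The summed level of the pair was 1.59 to 2.42 times that of Slc3a2 with saline and 0.416 to 0.613 times with cerulein, with C3 at 2.23. Thus the ratio was lower in each of those 5 libraries than in any saline library. Its divisor, the heavy chain RNA, rose.

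The other 4 light chains of Slc3a2 were placed beside them: Slc7a6 and Slc7a7, which exchange cationic for neutral amino acids, Slc7a10, which carries small neutral ones, and Slc7a11, which exchanges cystine for glutamate. Of the summed level per kb of the 6 light chains, Slc7a8 held 54.0% to 63.4% with saline and, leaving C3 aside, 4.73% to 6.99% with cerulein. Slc7a5 held 24.4% to 35.1% and 70.2% to 81.4%. Slc7a11 went from 0.173% to 0.542% up to 8.53% to 12.9%. The sum of the 6 was itself similar, at 55.5 to 104 CPM per kb with saline and 55.5 to 98.2 with cerulein, C3 being at 78.4. Relative to the Slc3a2 level, which rose, it was 1.77 to 2.58 times with saline, 0.480 to 0.713 times with cerulein and 2.52 times in C3. These shares are of RNA per exon length and say nothing of protein.

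**Figure D2:**
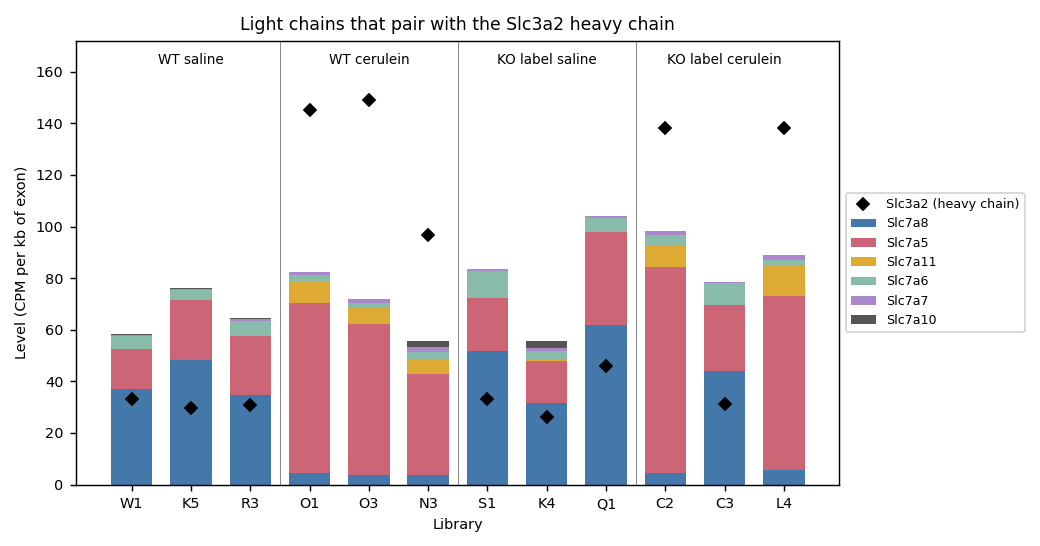
Levels of the 6 light chains of Slc3a2 (CPM per kb of exon) stacked for each of the 12 libraries, with the Slc3a2 level as a diamond. Slc7a8 takes 54.0% to 63.4% of the stack with saline and, C3 aside, 4.73% to 6.99% with cerulein, where the diamond lies above the stack.

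Of the cationic carriers, Slc7a1 (ENSMUSG00000041313, chromosome 5, 148327410 to 148399904, minus strand), the broadly expressed arginine importer, rose in wild type. It stood at 41.4, 61.7 and 45.6 CPM with saline and at 220.1, 186 and 159.6 CPM with cerulein. All 3 cerulein libraries lay above the saline ones. On the log2 scale the rise was 1.93 ± 0.48 (adjusted p = 0.0145), and it missed the threshold without W1 (1.82, adjusted p = 0.0542) or R3 (1.87, adjusted p = 0.0556). Calls over all genes fell in these fits too, from 4399 to 2581 and 2133. The AP-1 letters marked above, found in 6.75% of promoters, lie 123 bases before 1 of its 2 annotated starts. Their part in the rise was not tested.

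Slc7a2 (ENSMUSG00000031596, chromosome 8, 40862396 to 40922308, plus strand), the arginine importer known from liver and activated macrophages, behaved differently from Slc7a1. It stood at 27.9, 34.7 and 31.3 CPM with saline and at 23.4, 19.1 and 53.2 CPM with cerulein in wild type. O1 and O3 lay below the saline libraries and N3 above them, so the groups overlapped. The log2 fold change was 0.03 ± 0.38 (adjusted p = 0.968). In the labelled knockout Slc7a2 stood at 34.8, 51.2 and 27.6 CPM with saline and at 18.1 (C2), 19.6 (C3) and 31.5 CPM (L4) with cerulein. An opposite-strand transcript, Gm26584, covers 6.951% of its exon length but had 1 count in all 12 libraries.

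The 2 libraries highest in Slc7a2, N3 and K4, were also set apart by markers of other cells. The 6 adipocyte markers summed to 334 CPM in N3 and 423 CPM in K4, against 29.4 to 126 CPM in the other 10 libraries. Plin1 and Cidec were at 0 in O3 and C2, Plin1 and Retn in O3 and Q1, Lep in O3, Q1, C2 and C3, and Adipoq in Q1. The 8 lymphocyte markers summed to 559 CPM in N3, 306 CPM in W1, 274 CPM in K4 and 2.34 to 71.7 CPM elsewhere, with Cd3e at 0 in Q1 and C3, Cd79a in O3 and Cd8a in C2. The 6 macrophage markers summed to 445 CPM in N3, 375 CPM in K4 and 67.8 to 215 CPM elsewhere, and the 5 neutrophil markers to 123, 91.8 and 3.46 to 42.0 CPM, Ly6g being at 0 in 5 libraries. Their part in the Slc7a2 values was not tested. Without C3, N3 and K4, a choice made after the values were seen, the wild-type log2 fold change of Slc7a2 was -0.60 ± 0.23 with all cerulein libraries lower (adjusted p = 0.0646). With 1 library left out it was -0.56 without N3 (adjusted p = 0.190), -0.05 without W1 and -0.03 without K4. With every library kept it was -0.12 by limma-voom and -0.05 when scaled without the 50 most abundant genes, so several choices turned the sign of this value, which passed under none of them.

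**Figure D3:**
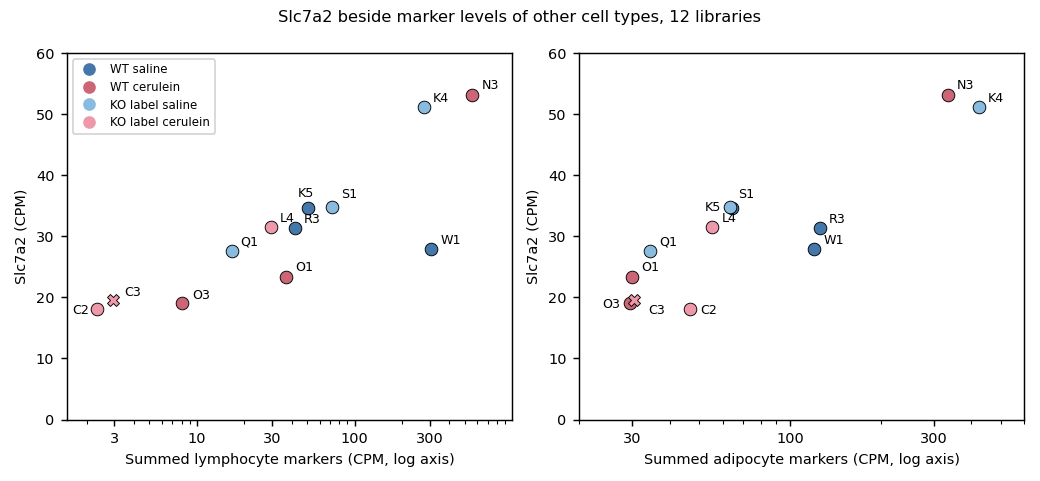
Slc7a2 level in CPM against the summed CPM of the adipocyte and of the lymphocyte markers (log axis for the sums) in the 12 libraries, coloured by group, C3 as a cross. N3 (53.2 CPM) and K4 (51.2 CPM) stand highest in Slc7a2 and highest in the adipocyte sum, at 334 and 423 CPM. In the lymphocyte sum W1 (306 CPM) lies between N3 (559 CPM) and K4 (274 CPM), with Slc7a2 at 27.9 CPM.

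The 5 fibroblast markers were also highest in K4 (453 CPM) and N3 (363 CPM), with 134 to 358 CPM elsewhere. The 5 endothelial markers summed to 54.2 to 89.0 CPM over the 12 libraries. Slc7a10, a light chain known from adipocytes and named here after its values were seen, stood at 4.85 CPM in N3, 5.26 CPM in K4 and 0 to 0.945 CPM elsewhere. The 8 islet markers summed to 462 (C3) to 3597 CPM (O1) in 11 libraries and to 11499 CPM in L4. As a share of the cationic pair per exon length, Slc7a1 made up 40.5% to 67.3% of the sum of Slc7a1 and Slc7a2 with saline and 70.4% to 92.5% with cerulein, C3 standing at 68.7%. This share leaves out Slc7a3, which also imports arginine and lysine. In wild type Slc7a3 stood at 1.57 ± 0.34 CPM per kb with saline and 19.6 ± 7.04 with cerulein (SD, n = 3). Slc7a1 stood at 4.30 ± 0.93 and 16.4 ± 2.63.

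Of the small neutral amino acid exchangers, Slc1a5, the glutamine exchanger also called ASCT2 (ENSMUSG00000001918, chromosome 7, 16781340 to 16798274, plus strand), rose in wild type. It stood at 89.8, 73.7 and 85.8 CPM with saline and at 329.6, 324 and 283 CPM with cerulein in wild type. The 3 cerulein libraries lay far above the saline ones. Slc1a5 rose by 1.91 ± 0.38 on the log2 scale (adjusted p = 0.00918) and stayed past the threshold in 20 of 20 alternative settings.

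Its relative Slc1a4, an exchanger of alanine, serine and cysteine (ENSMUSG00000020142, chromosome 11, 20302180 to 20332713, minus strand), stood at 12.3, 12.4 and 10.9 CPM with saline and at 34.6, 25.4 and 13.0 CPM with cerulein in wild type. N3 lay barely above the saline libraries. The log2 fold change of 1.04 ± 0.44 did not pass (adjusted p = 0.0961). It passed without N3 (1.34 ± 0.43, adjusted p = 0.0439), without C3 (1.04 ± 0.37, adjusted p = 0.0484) and in a fit of the wild-type groups alone (1.04 ± 0.31, adjusted p = 0.0321).

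Of the sodium-coupled carriers, Slc38a2, which is known to be induced when amino acids are scarce (ENSMUSG00000022462, chromosome 15, 96687392 to 96699730, minus strand), rose in wild type. It stood at 79.0, 103 and 72.7 CPM with saline and at 319.9, 277 and 196 CPM with cerulein. The groups did not overlap, N3 again being the lowest of the cerulein libraries. Its log2 fold change was 1.64 ± 0.44 (adjusted p = 0.0200). It missed the threshold without W1 (adjusted p = 0.0651), R3 (0.0738), O1 (0.0633) or O3 (0.0595). Calls over all genes were also fewer in those fits, at 1841 to 2581 against 4399.

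Slc38a5, a glutamine carrier that works in either direction (ENSMUSG00000031170, chromosome X, 8271133 to 8280179, plus strand), did not pass. It stood at 62.1, 58.0 and 61.9 CPM with saline and at 49.2, 52.8 and 42.8 CPM with cerulein in wild type. All cerulein libraries were slightly lower. The log2 fold change of -0.33 ± 0.22 did not pass (adjusted p = 0.286). It passed in a fit of the wild-type groups alone (-0.32 ± 0.10, adjusted p = 0.0418).

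Per exon length, the order of the 10 levels differed between the treatments. The order within a treatment rests on the annotated exon lengths. In wild type with saline Slc7a8 led at 40.1 ± 7.19 CPM per kb (SD, n = 3), followed by Slc3a2 at 31.1 ± 1.77 and Slc38a5 at 27.1 ± 1.03. Slc7a5 (20.4 ± 4.41) and Slc1a5 (19.9 ± 2.01) overlapped, and Slc38a2 lay at 9.62 ± 1.83. Slc7a1 (4.30 ± 0.93) overlapped Slc7a2 (3.43 ± 0.37), which overlapped Slc1a4 (3.02 ± 0.22), and Slc43a1 was last at 0.261 ± 0.061. With cerulein in wild type Slc3a2 led at 130.4 ± 29.1 CPM per kb, ahead of Slc1a5 (74.8 ± 6.02) and Slc7a5 (54.4 ± 13.9). Slc38a2 (29.9 ± 7.14) overlapped Slc38a5 (21.5 ± 2.27), and Slc7a1 followed at 16.4 ± 2.63. Slc1a4 (6.2 ± 2.76), Slc7a8 (4.03 ± 0.37) and Slc7a2 (3.49 ± 2.03) overlapped as neighbours, and Slc43a1 stayed last at 0.126 ± 0.069. The summed level of the 10 carriers was 145 to 221 CPM per kb in the saline libraries, 272 to 393 in the 5 cerulein libraries and, in C3, within the range of saline.

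In the labelled knockout, C2 and L4 stood apart from C3 in most of the carriers. With saline its 3 libraries held Slc7a8 at 259.8, 158 and 309.8 CPM, and with cerulein C2 held 23.2, L4 29.0 and C3 219.7 CPM. Slc3a2 stood at 116, 92.8 and 162 CPM with saline, then 486 (C2), 488 (L4) and 109.9 CPM (C3). Slc1a5 stood at 81.5, 109.9 and 83.2 CPM, then 293, 307 and 89.9 CPM in the same order. Slc7a1 stood at 47.2, 44.0 and 71.9 CPM, then 281, 199 and 54.3 CPM. In each of these 4 genes C2 and L4 lay beyond all 3 saline libraries and C3 among them.

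Slc7a5, Slc38a2 and Slc1a4 were likewise higher in C2 and L4 than in the saline libraries. Slc7a5 stood at 75.8, 60.3 and 133 CPM with saline and at 296 (C2), 250 (L4) and 94.8 CPM (C3) with cerulein. Slc38a2 stood at 63.1, 88.5 and 119 CPM, then 244, 268 and 69.5 CPM, and Slc1a4 at 12.1, 8.42 and 19.5 CPM, then 35.9, 48.3 and 16.2 CPM. Slc38a5 stood at 53.5, 51.1 and 66.4 CPM with saline, 82.9 in C2, 45.8 in L4 and 49.6 CPM in C3, so that C2 and L4 lay on opposite sides of the saline libraries. The least abundant, Slc43a1, stood at 1.55, 1.56 and 1.25 CPM, then 0.680, 0.807 and 0.985 CPM, and was the gene of the 10 whose groups did not overlap with C3 kept. C3 lay inside the range of the 6 saline libraries for 7 of the 10 genes and inside that of the other cerulein libraries for 4.

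With C3 kept, edgeR called none of the 10 in the labelled knockout and 0.0% of all genes tested. At an unadjusted p under 0.05 it had 6 of the 10 and 3256 genes. DESeq2 called 5 of the 10 (Slc7a1, Slc1a5, Slc3a2, Slc1a4 and Slc7a5, all higher) and 1359 genes, and limma-voom called 0 of the 10 and 0 genes, with 7 of the 10 and 3229 of 14329 genes at an unadjusted p under 0.05. The lowest adjusted p among the 10 by edgeR was 0.0881, for Slc7a1 (1.71 ± 0.47) and Slc1a5 (1.33 ± 0.37). Slc7a8 had a log2 fold change of -1.42 ± 0.70 (adjusted p = 0.246). The groups did not overlap for 1 of the 10 genes, against 15.8% of all genes.

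Without C3, 7 of the 10 passed in the labelled knockout, 6 higher and 1 lower, against 29.2% of all genes (18.7% higher and 10.5% lower). The log2 fold changes were 2.14 ± 0.27 for Slc7a1 (adjusted p = 0.000232), 1.98 ± 0.25 for Slc3a2 (0.00025) and 1.72 ± 0.17 for Slc1a5 (7.16e-05). Slc1a4 (1.67 ± 0.40, adjusted p = 0.0113), Slc7a5 (1.61 ± 0.34, 0.00499) and Slc38a2 (1.51 ± 0.28, 0.00253) were also higher. Slc7a8 fell by 3.21 ± 0.30 on the log2 scale (adjusted p = 4.88e-05). Slc7a2 (-0.61 ± 0.44, adjusted p = 0.327), Slc38a5 (0.18 ± 0.23, 0.600) and Slc43a1 (-0.96 ± 0.47, 0.149) did not pass. The groups did not overlap for 8 of the 10 genes, against 53.1% of all genes. These values rest on C2 and L4 alone on the cerulein side.

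**Figure D4:**
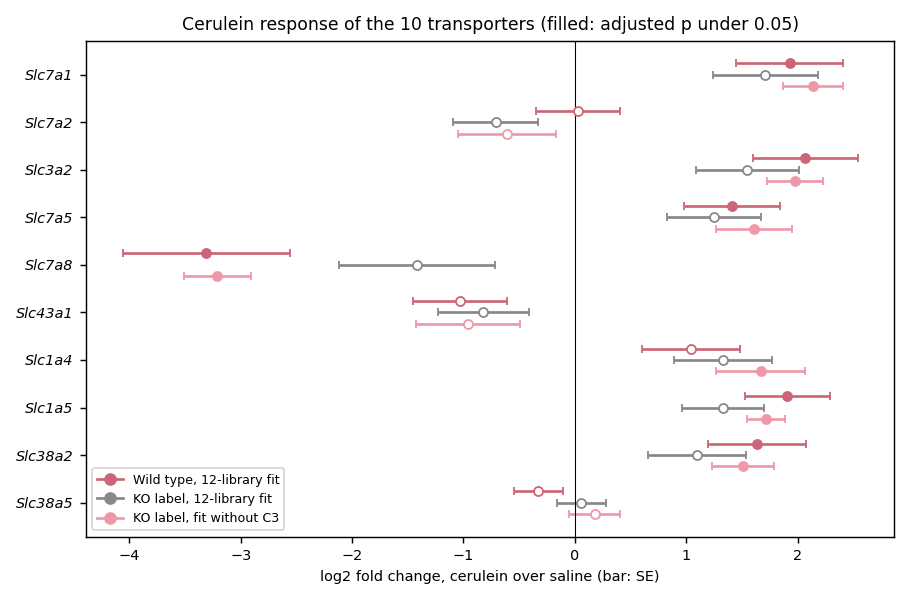
Log2 fold change of cerulein against saline with its SE for the 10 carriers, in wild type and in the labelled knockout with and without C3, filled where the adjusted p was under 0.05. Slc7a8 lies at -3.31 in wild type, at -1.42 in the labelled knockout with C3 and at -3.21 without it.

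The genotype label itself separated none of the carriers past the test. With saline, the log2 differences of labelled knockout from wild type ran from -0.09 ± 0.22 (Slc38a5) to 0.27 ± 0.68 (Slc7a8), every adjusted p was 1, and the groups overlapped for all 10 genes, against 4.84% of all genes without overlap. edgeR called 0.0% of all genes in this comparison, with 60 genes and none of the 10 at an unadjusted p under 0.05. DESeq2 and limma-voom also called 0 of the 10. With SEs of 0.22 to 0.68, differences of that size could not be told from 0.

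With cerulein, the differences ran from -0.47 ± 0.38 (Slc7a2) to 2.17 ± 0.71 (Slc7a8), and edgeR called none of the 10 and 0.0% of all genes. At an unadjusted p under 0.05 there were 1 of the 10 and 1146 genes, and DESeq2 called 0 of the 10 and 11 genes. Slc7a8 had all 3 labelled knockout libraries (23.2, 219.7 and 29.0 CPM) above the 3 of wild type (22.3, 18.9 and 19.4 CPM) but did not pass (adjusted p = 0.604). Without C3 the Slc7a8 difference was 0.37 ± 0.26 (adjusted p = 0.984), the 10 differences ran from -0.36 ± 0.43 (Slc7a2) to 0.79 ± 0.40 (Slc1a4), and again none of the 10 and 0.0% of all genes were called, with 0 of the 10 and 747 genes at an unadjusted p under 0.05. The groups did not overlap for 1 of the 10 genes, against 9.76% of all genes, and without C3 for 3 (Slc7a8, Slc7a5 and Slc1a4), against 16.0%.

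The difference between the cerulein responses of the 2 genotype labels, the interaction, was also called for none of the 10 and 0.0% of all genes. It ran from -0.74 ± 0.54 (Slc7a2, adjusted p = 0.812) to 1.89 ± 0.98 (Slc7a8, adjusted p = 0.812). At an unadjusted p under 0.05 there were 0 of the 10 and 594 of all genes by edgeR, and 1 of the 10 and 763 genes by DESeq2, which called 0 of the 10 and 1 gene after adjustment. Without C3 the interaction was 0.10 ± 0.36 for Slc7a8 and ran from -0.63 ± 0.58 (Slc7a2) to 0.63 ± 0.54 (Slc1a4), again with none of the 10 and 0.0% of all genes called, and with 0 of the 10 and 508 genes at an unadjusted p under 0.05. The wild-type and labelled knockout responses share no library.

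Other amino acid carriers were read from a list of 42 genes, of which 28 were tested. In wild type 7 rose, 4 fell and 17 did not pass, with a median log2 fold change of 0.26 against 1.23 for the 10 carriers. Both lists were chosen with earlier results of these data known, so the 2 medians are only a description. The 11 calls among 28 stand beside 30.7% of all genes (17.9% higher and 12.8% lower). They became 7 without W1 or O1, 5 without K5 or R3 and 4 without O3. Calls over all genes fell as well, to 2581 of 14849 without W1 and 2407 of 14675 without O1. They were 2205 of 14813 without K5, 2133 of 14708 without R3 and 1841 of 14819 without O3. The largest rise was that of the cystine exchanger Slc7a11, from 3.04, 1.85 and 4.57 CPM to 118, 85.3 and 75.9 CPM (4.88 ± 1.07, adjusted p = 0.0107). Slc7a3, another importer of arginine and lysine, went from 4.53, 7.09 and 6.18 CPM to 87.2, 91.9 and 43.6 CPM (3.64 ± 0.69, adjusted p = 0.00918). Neither pair of groups overlapped, and both genes passed in 20 of 20 alternative settings.

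Slc38a1, the closest relative of Slc38a2 and a carrier of glutamine, went from 3.43, 2.98 and 4.37 CPM to 36.2, 41.4 and 44.7 CPM (3.50 ± 0.97, adjusted p = 0.0216). It missed the threshold by limma-voom (adjusted p = 0.0777), with no filter (0.0677), or without W1 (0.0686), K5 (0.0765), R3 (0.0653) or O3 (0.0559). Slc1a2, a glutamate importer known from the brain, rose by 3.19 ± 1.0 (adjusted p = 0.0341) from 0.0514 to 0.388 CPM with saline, on as few as 1 count, to 0.955 to 2.28 CPM with cerulein. With 1 library left out the Slc1a2 value lay between 2.77 (without K5 or O3) and 4.40 (without W1). It was not called by limma-voom (0.0619) or without K5 (0.116), R3 (0.121), O1 (0.0667) or O3 (0.102). The taurine carrier Slc6a6 went from 11.8, 22.1 and 14.7 CPM to 61.0, 63.0 and 46.5 CPM (1.81 ± 0.50, adjusted p = 0.0210), and missed the threshold without W1 (0.0744), R3 (0.0722), O1 (0.0560) or O3 (0.0631). The heavy chain's partner Slc7a7 rose by 1.35 ± 0.46 (adjusted p = 0.0447) and passed in 11 of 20 alternative settings, not by limma-voom (0.0825) and not without any 1 of W1 (0.0993), K5 (0.115), R3 (0.118), O1 (0.0682), O3 (0.0867), N3 (0.117), S1 (0.0598) or C2 (0.0539).

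Slc38a9, the lysosomal arginine sensor that also carries amino acids, fell from 8.60, 8.48 and 5.75 CPM to 2.69, 2.95 and 2.97 CPM (-1.40 ± 0.27, adjusted p = 0.00918). Relatives of the 10 that did not pass in wild type were the light chain Slc7a6 (-0.90 ± 0.47, adjusted p = 0.171), the aromatic amino acid carrier Slc16a10 (0.36 ± 0.88, 0.785), the Slc43a1 relative Slc43a2 (-0.11 ± 0.67, 0.921) and Slc38a4 (0.26 ± 0.73, 0.812). Slc3a1, the other heavy chain of the family, had too few counts to be tested. Slc7a6 passed in a fit of the wild-type groups alone (-0.87 ± 0.22, adjusted p = 0.0173) and, by a choice made after the values were seen, without C3, N3 and K4 (-1.11 ± 0.31, adjusted p = 0.0194). Slc7a6 in the labelled knockout was at -0.47 ± 0.47 with C3 (adjusted p = 0.541), -1.17 ± 0.40 without it (0.0541), 0.03 without S1 (0.973) and -1.5 ± 0.32 without C3, N3 and K4 (0.00911).

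In the labelled knockout edgeR called none of these 28 with C3 kept and DESeq2 called 3 (Slc7a11, Slc7a3 and Slc38a1), against 1359 of all 14329 genes. Without C3 edgeR called 10, 8 higher and 2 lower, against 29.2% of all genes. Slc7a11 was then at 5.24 ± 0.38 (adjusted p = 1.22e-05), Slc38a1 at 3.83 ± 0.44 (0.000201) and Slc7a3 at 3.38 ± 0.33 (6.33e-05). C2 and L4 held Slc7a11 at 120.4 and 159.6 CPM, against 2.5 to 4.35 CPM in the saline libraries and 2.53 CPM in C3.

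**Figure D5:**
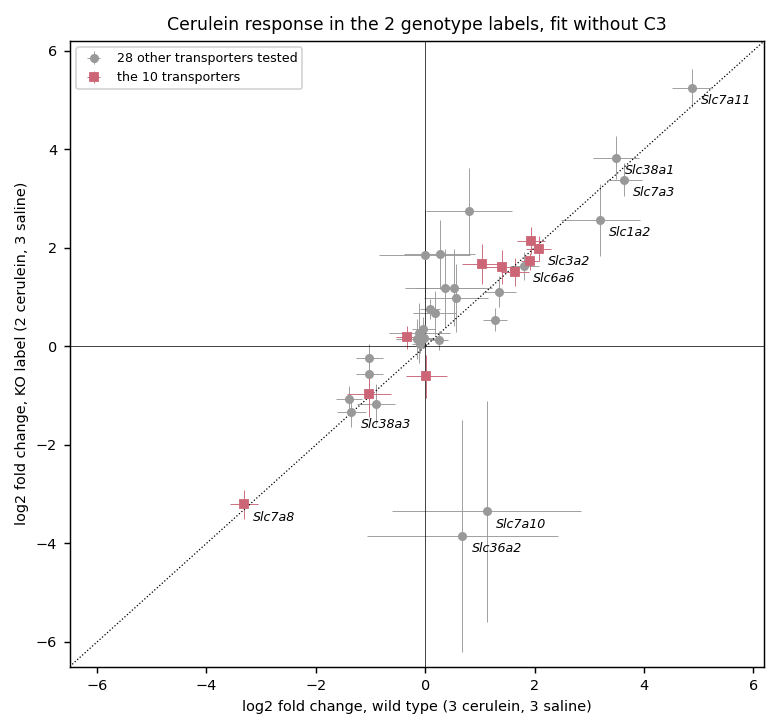
Log2 fold change of cerulein against saline in the labelled knockout against that in wild type, both fitted without C3, for the 10 carriers (squares) and the 28 other amino acid carriers tested (circles), with SE bars and a dotted line of equal change. Slc7a11 lies farthest up, at 5.24 in the labelled knockout, and Slc7a8 farthest down among the 10, at -3.21.

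Genes by which cells sense amino acids were read from a list of 29, all tested. In wild type 6 rose, 4 fell and 19 did not pass, with a median of -0.28, against 30.7% of all genes called. Without C3 there were 6 higher and 8 lower, against 37.9% of all genes. The 10 calls became 6 without O1 and 5 without O3, where calls over all genes also fell, to 2407 of 14675 and 1841 of 14819. Sesn2, the leucine sensor that restrains mTORC1, went from 3.36, 3.39 and 3.23 CPM to 128, 126 and 75.3 CPM (5.05 ± 1.11, adjusted p = 0.0108). Its relative Sesn1 fell from 88.2, 155 and 87.1 CPM to 6.23, 4.36 and 11 CPM (-3.93 ± 0.98, adjusted p = 0.0149). Sesn1 missed the threshold with no filter (0.0574) and without O1 (0.0545) or O3 (0.0622).

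Atf4, the transcription factor of the amino acid response, went from 148, 103 and 118 CPM to 527, 498 and 319 CPM (1.87 ± 0.41, adjusted p = 0.0110). Rheb, the small GTPase that activates mTORC1, went from 32.1, 26.6 and 29.1 CPM to 114, 112 and 74.5 CPM (1.78 ± 0.33, adjusted p = 0.00918). Nprl2, a subunit of a complex that holds mTORC1 off, fell by 1.46 ± 0.36 (adjusted p = 0.0144), and Flcn, the folliculin of the lysosomal Rag pathway, by 1.15 ± 0.21 (adjusted p = 0.00918). Atf4, Rheb, Nprl2, Flcn and Sesn2 passed in 20 of 20 alternative settings. In the labelled knockout edgeR called 0 of the 29 with C3 kept and 11 without it (6 higher and 5 lower), against 0.0% and 29.2% of all genes. With C3 kept DESeq2 called 5 of the 29 and 1359 of all 14329 genes. Atf4 was at 1.49 ± 0.41 with C3 (adjusted p = 0.0881) and 1.87 ± 0.27 without it (0.000521).

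As a description, the genes most like each carrier were found by the Pearson correlation of log2 CPM over the 12 libraries, among 11321 genes. The libraries share the split into saline and cerulein, so the correlations mostly repeat it. The values below include C3, and without it they lay between 0.883 and 0.996 for the genes named. Slc7a1 was nearest to Trib3 (r = 0.992), Ern1 (0.991) and Coq10b (0.990), Slc3a2 to Cdcp1 (0.995), Chac1 (0.994) and Phf10 (0.994), and Slc1a5 to Zyx (0.995), Tuba1c (0.994) and Stk40 (0.994). Slc38a2 was nearest to Pofut2 (0.991), Mafg (0.982) and Fam83b (0.981), and Slc7a5 to Pitpnm2, Arih2 and Tollip (0.981 each). Slc7a8, the gene that fell, was nearest to Sgpp1 (0.996), Lrrn1 (0.995) and Sel1l (0.993). Slc1a4 was nearest to Jph4 (0.948), Hid1 (0.945) and Esrp1 (0.944), and Slc43a1 to Slc43a3 (0.955), Timp2 (0.951) and Creb3l1 (0.948).

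Slc7a2 was nearest to Rcsd1 (0.962), Ikzf3 (0.959), a lymphocyte transcription factor, and Enpp2 (0.951). Slc38a5 was nearest to Ccar2 (0.904), Nkiras2 (0.887) and Zfp1 (0.875), the last at 0.961 without C3. Within the 10, Slc7a1 and Slc3a2 had r = 0.976 (0.975 without C3), Slc7a8 and Slc1a5 r = -0.988 (-0.987), and Slc7a1 and Slc7a2 r = -0.358 (-0.481).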

How the data were processed

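RNA of whole pancreas was sequenced in 12 libraries, 1 per animal, from a stranded total RNA kit, per the labels' protocols. The deposited values are whole-number read counts per Ensembl gene with no normalization, made by the authors. HTSeq, DESeq2 and the mm10 build are named, without versions, in the submitters' processing notes. Which aligner, annotation release and strand setting were used is not given in the sources used here. Of 49585 genes, 49326 were found by Ensembl identifier in GENCODE M21 (GRCm38), which also gave exon lengths. Library totals of 18292997 to 32158629 counts set the precision, and counting error is small for all carriers but Slc43a1.

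The fits used R 4.3.3, edgeR 4.0.16, limma 3.58.1 and DESeq2 1.42.0, and the tables and plots Python 3.11.15, pandas 2.3.3, NumPy 2.4.6 and matplotlib 3.10.9. filterByExpr kept 14329 genes, TMM scaled them, and 1 robust quasi-likelihood model held a mean for each of the 4 groups. Tests were two-sided. CPM use TMM-scaled totals, and the SE is the size of the log2 fold change over the root of its F statistic. The common biological coefficient of variation was 0.357 (0.304 without C3). The code was tested on simulated data. Alternatives were RLE scaling, DESeq2, limma-voom, no filter, a stricter filter (1 CPM in 6 libraries), scaling without the 50 most abundant genes, each library left out, the compared groups alone and, added after the values were seen, no C3, N3 and K4.

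The carriers and all lists were chosen with earlier results of these data known. Text names Atf3, the 10 carriers, up to 6 called genes with the largest change per list and cerulein comparison, 7 listed relatives and the 3 genes most like each carrier (mean CPM of at least 1, prior count 2). No list was tested as a whole.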

Additional observations from a re-analysis of the deposited data

How the results depend on the processing

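No paired analysis was possible because the animal codes differ from group to group. Calls among the 10 carriers in wild type numbered 6, and 3 to 8 with 1 library left out (3 without W1 or R3). Of all genes, 4399 of 14329 were called, and 1841 of 14819 (without O3) to 5583 of 14733 (without C3) with 1 left out. Among the 10 in the labelled knockout, calls numbered 0, 5 by DESeq2, 7 without C3, N3 and K4, and 0 to 7 with 1 library left out (7 without C3). Of all genes, those called were 0, 1359 of 14329 by DESeq2, 4319 of 14558 without C3, N3 and K4, and 4306 of 14733 without C3. These all-gene counts also stand beside the calls among the other carriers. Calls among the other carriers were 11 in wild type and 4 to 11 with 1 library left out, and in the labelled knockout 0, 3 by DESeq2, 9 without the 3 libraries and 0 to 10 with 1 left out. The log2 values whose sign turned had not passed with all libraries in edgeR, and the cause was not tested. For Slc7a2 in wild type the value was -0.12 by limma-voom, -0.05 when scaled without the 50 most abundant genes, -0.60 without the 3 libraries and -0.56 to 0.29 with 1 left out. For Slc38a5 in the labelled knockout it was -0.02 under that scaling and -0.26 to 0.22. With 1 library left out, the saline difference between genotype labels ran from -0.12 to 0.32 for Slc7a1, -0.01 to 0.46 for Slc7a2, -0.15 to 0.47 for Slc7a5, -0.07 to 0.35 for Slc3a2, -0.21 to 0.41 for Slc1a4, -0.01 to 0.21 for Slc1a5, -0.17 to 0.28 for Slc38a2 and -0.17 to 0.17 for Slc43a1. The cerulein difference ran from -0.58 to 0.35 for Slc7a1, -0.76 to 0.12 for Slc7a2, -0.23 to 0.44 for Slc7a5 (-0.06 by limma-voom), -0.63 to 0.08 for Slc3a2, -0.02 to 0.46 for Slc38a5 and -0.18 to 0.55 for Slc43a1. The interaction ran from -0.71 to 0.22 for Slc7a1, -0.47 to 0.24 for Slc7a5, -0.07 to 0.67 for Slc1a4 and -0.14 to 0.59 for Slc43a1. Without the 3 libraries the saline difference was -0.01 for Slc7a2 and Slc1a5, the cerulein difference 0.23 for Slc7a1 and 0.21 for Slc7a2, and the interaction 0.22 for Slc7a2 and -0.18 for Slc7a8. Among other carriers, the wild-type value ran from -0.11 to 0.87 for Slc38a4 and -0.65 to 0.30 for Slc43a2, and the labelled knockout value from -1.26 to 1.19 for Slc16a10, -0.18 to 1.87 for Slc38a4, -1.17 to 0.03 for Slc7a6 (-1.5 without the 3 libraries, where it passed) and -1.05 to 0.29 for Slc43a2 (0.72 without the 3 libraries).
Over all genes, wild-type calls were 4399, and 1841 to 2581 without W1, K5, R3, O1 or O3. No filter gave 2370 higher and 1058 lower against 2568 and 1831. Of the 10, Slc43a1 had the fewest counts (6 to 48 per library). The other values are limited by 3 animals per group and by C3.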

Other observations

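The other carriers held 4 genes that passed in wild type outside the rule for naming genes, and they are given here after their values were seen. Slc1a3, a glutamate importer known from astrocytes, rose from 11.5, 9.55 and 11.6 CPM to 25.0, 27.3 and 26.4 CPM, a log2 fold change of 1.27 ± 0.24 (edgeR, adjusted p = 0.00918) that passed in 20 of 20 alternative settings. In the labelled knockout it stood at 12.7, 13.3 and 10.4 CPM with saline and at 11.6 (C2), 13.2 (C3) and 23.5 CPM (L4) with cerulein, so L4 lay above the saline libraries and C2 among them. The difference of the responses was -0.86 ± 0.33, which did not pass (adjusted p = 0.812), and -0.73 ± 0.33 without C3 (adjusted p = 0.999).

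The other 3 fell. Slc38a3, a glutamine carrier related to Slc38a5, went from 91.5, 87.1 and 97.6 CPM to 41.0, 44.7 and 22.8 CPM in wild type (-1.35 ± 0.39, adjusted p = 0.0250), and to 29.7 (C2), 34.0 (L4) and 81.1 CPM (C3) in the labelled knockout, whose saline libraries held 57.0 to 94.0 CPM. Slc38a3 missed the threshold without any 1 of the 6 wild-type libraries, with an adjusted p of up to 0.0707. The glycine carrier Slc6a9 went from 124, 177 and 147 CPM to 85.5, 78.2 and 56.3 CPM (-1.02 ± 0.27, adjusted p = 0.0184). It missed the threshold without K5, R3, O3 or N3, with an adjusted p of up to 0.0710. Slc66a1, which exports cationic amino acids from lysosomes, went from 2.72, 3.24 and 3.03 CPM to 1.80, 1.26 and 1.34 CPM (-1.02 ± 0.25, adjusted p = 0.0144), and missed it without K5 or O3, with an adjusted p of up to 0.0593.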
